A study of Mus musculus with 12 samples.

Results

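The protocadherins measured in the ventral tegmental area (VTA) of ageing mice were described here, and the genes of the beta cluster were compared with all other protocadherins. Members were all probe sets that the array annotation lists for exactly 1 gene with a symbol starting with Pcdh. This gave 35 of 18193 genes with 62 probe sets. The beta cluster held 22 genes and 28 probe sets, and the other protocadherins held 13 genes and 34 probe sets. The latter were 9 probe sets of delta-1 genes (Pcdh1, Pcdh7, Pcdh9, Pcdh11x), 16 of delta-2 genes (Pcdh8, Pcdh10, Pcdh17, Pcdh18, Pcdh19), 1 of the gamma cluster (Pcdhgc4) and 8 of Pcdh12, Pcdh15 and Pcdh20. No alpha cluster gene was a member, since each alpha probe set is listed for several genes. All 62 probe sets were tested, as no filter on low values was used, although 8 beta and 6 other probe sets had a mean below 4.57, the lower quartile of all probe set means.

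RNA came from the VTA, a midbrain region with dopaminergic neurons, of wild-type mice of the C57BL/6 strain, labelled C57, aged 2 months (young), 10 months (middle-aged) or 18 months (late middle-aged). Each age had 4 Affymetrix arrays, and each array held RNA pooled from the dissected VTA of 5 mice. The deposited values are log2 expression levels per probe set, and a log2 change of 1 is a doubling. The comparison addresses how expression in the VTA changes with age before senescence, and in which interval. Young arrays 3 and 4 were nearly identical, with a gap of over 1 log2 unit in 1 probe set where the 17 other within-age pairs had 85 to 4905, so their mean was counted as 1 sample (n = 3, 4 and 4 at 2, 10 and 18 months). The labels name them as separate replicates. Over the protocadherin probe sets alone they were less distinct, with a median gap of 0.11 against 0.13 to 0.39 in the other pairs.

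Protocadherins are calcium-dependent adhesion molecules of the cadherin family, and most are found in neurons. Those of the alpha, beta and gamma clusters lie in tandem arrays, and each neuron switches on its own small set by choosing promoters with the help of the insulator protein CTCF and the cohesin ring. Matching sets on touching membranes bind each other, which lets a neuron tell its own branches from those of its neighbours. Beta genes each consist of a single coding exon, whereas alpha and gamma variable exons are joined to shared constant exons. The delta protocadherins lie outside the clusters and take part in axon growth, synapse formation and cell sorting. Beta genes are close copies of one another, so that a probe set may also report a related gene, and the values of single beta genes are uncertain in this respect. Of the 62 probe sets, 57 carry the plain suffix _at, and 5 carry a suffix (_a_at, _s_at or _x_at) that the manufacturer uses for probes matching several transcripts.

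At 18 against 2 months, Pcdhb9, Pcdhb17 and Pcdhb8 rose and no beta probe set fell. Outside the beta cluster, 1 probe set of Pcdh10 and that of Pcdhgc4 fell and no other member rose. A probe set was called changed at an adjusted p (pFDR) under 0.05 and a fold change over 1.3 in limma, with p-values adjusted over all 45037 probe sets. Thus 3 of 28 beta probe sets (10.7%) were called higher, against 4.55% of all probe sets, and 2 of 34 other protocadherin probe sets (5.88%) were called lower, against 2.91% of all. At an unadjusted p under 0.05, 10 beta probe sets were higher and 2 lower, and 0 other protocadherin probe sets were higher and 5 lower, where 11.6% of all probe sets were higher and 11.9% lower. These counts are small, and the difference between the groups was not tested. Rises were not confined to the beta cluster. An alpha cluster probe set listed for 14 genes, and so not a member, was called higher too (1424341_s_at, 1.19 ± 0.27, SE, adjusted p = 0.0237 in limma). The other alpha probe sets were not called.

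Pcdhb9 had the highest mean signal of the beta probe sets. Its log2 level was 9.65, 9.93 and 9.98 in the young samples, 10.37, 10.28, 10.67 and 10.18 at 10 months, and 10.80, 11.16, 10.49 and 10.84 at 18 months. Every sample of either later age lay above every young sample, and the samples of the later ages overlapped with each other. The rise from 2 to 18 months was 0.97 ± 0.17 (SE), or 1.96-fold, with an adjusted p of 0.00872 in limma.

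Pcdhb17 was measured at 7.34, 7.21 and 7.72 in the young samples, 7.81, 7.32, 8.0 and 7.59 at 10 months, and 8.39, 8.40, 7.94 and 8.36 at 18 months. The 18 months samples all lay above the young ones, with array 3 at 7.94 apart from the others of its age, and the 10 months samples overlapped with both. The rise was 0.85 ± 0.18 (SE), or 1.80-fold, with an adjusted p of 0.0206. Pcdhb8 had a low signal, at 4.88, 5.25 and 5.32 in the young samples, 5.78, 5.10, 5.60 and 5.68 at 10 months, and 5.82, 5.97, 5.85 and 5.91 at 18 months. All 18 months samples of Pcdhb8 lay above those of both earlier ages. The rise was 0.74 ± 0.16 (SE), or 1.67-fold, with an adjusted p of 0.0220.

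**Figure D1:**
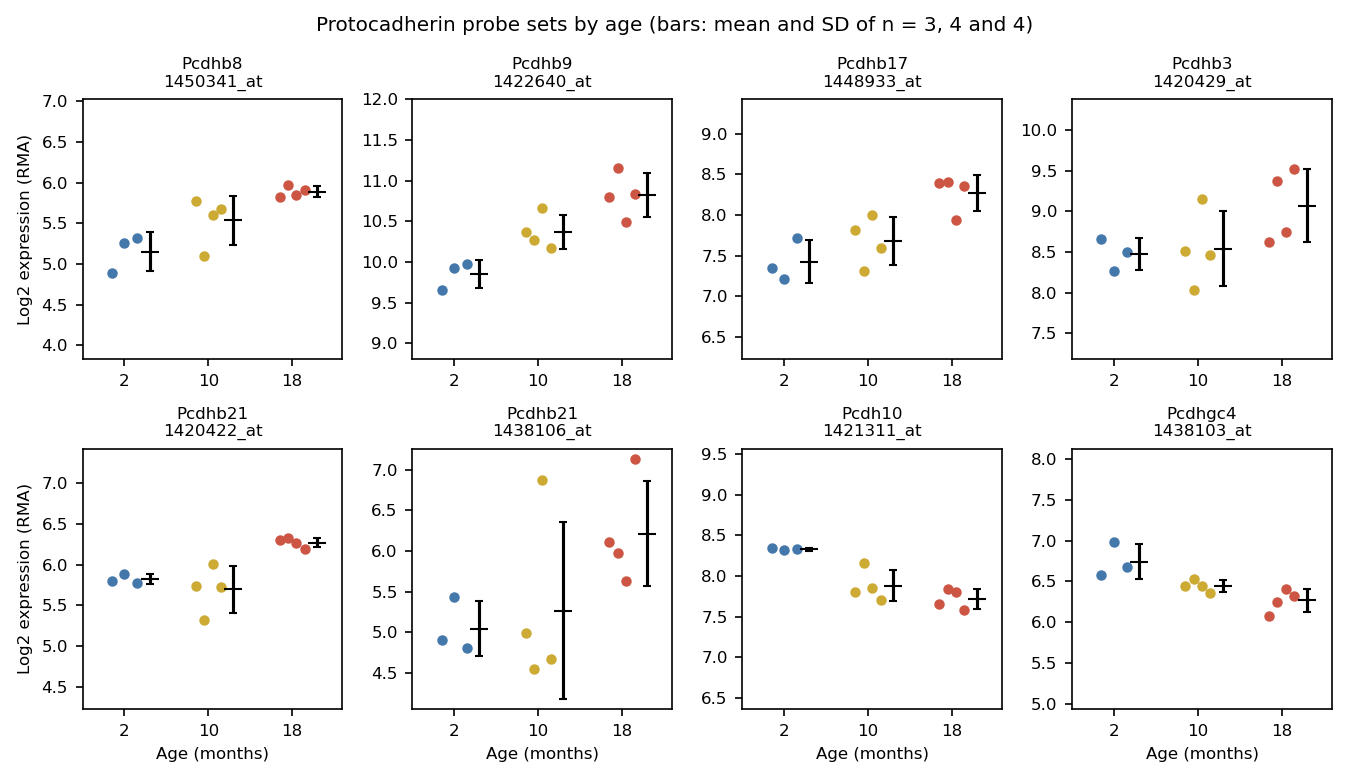
Log2 expression (vertical axis, RMA values, each panel spanning the same range) of 8 protocadherin probe sets by age in months, with 1 point per sample and the mean and SD at the right of each age (n = 3, 4 and 4). The 18 months samples of Pcdhb8, Pcdhb9, Pcdhb17 and both Pcdhb21 probe sets lie above all young samples, those of Pcdh10 and Pcdhgc4 lie below them, and those of Pcdhb3 overlap with them.

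Further beta genes had higher values at 18 months that did not pass the test. The largest was 1438106_at of Pcdhb21, with 4.91, 5.43 and 4.80 in the young samples and 6.12, 5.98, 5.63 and 7.13 at 18 months. Its change of 1.17 ± 0.51 (SE) had an adjusted p of 0.190, and at 10 months array 3 alone stood at 6.87 while the other arrays lay between 4.54 and 4.99. The other Pcdhb21 probe set, 1420422_at, was tighter. It lay at 5.79, 5.89 and 5.78 in the young samples and at 6.30, 6.32, 6.27 and 6.19 at 18 months, with no overlap between the ages (0.45 ± 0.14, SE, adjusted p = 0.0731). Pcdhb3 is, like the called Pcdhb9, on the study's list of genes shared by aged mouse brains. It lay between 8.27 and 8.66 in the young samples and between 8.62 and 9.53 at 18 months. The groups of Pcdhb3 overlapped, and its change of 0.59 ± 0.27 (SE) did not pass the test (adjusted p = 0.210).

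Over the whole beta cluster, the median log2 change from 2 to 18 months was 0.18, against −0.06 over all probe sets. Of the 28 probe sets, 22 (78.6%) had a change above 0, against 40.4% of all probe sets. In 9 the 18 months samples all lay above the young samples and in 3 all below, where 10.4% and 13.1% of all probe sets did so. The 20 beta probe sets at or above the lower quartile of signal had a median change of 0.31 and the 8 dim ones had 0.09. Among the dim ones, Pcdhb13 had a change of −0.23 ± 0.11 (SE) without overlap between the ages and without passing the test.

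The genes that rose are described next by their position in the cluster. In the gene order of the mouse reference (assembly GRCm38.p6, on chromosome 18), Pcdhb8 and Pcdhb9 are neighbours. Before them, the 8 probe sets of Pcdhb1 to Pcdhb7 had uncalled changes between 0.06 and 0.59. The larger were those of Pcdhb3 (0.59) and of Pcdhb7 (0.47), which adjoins Pcdhb8 and not Pcdhb3. The 11 probe sets of the genes from Pcdhb10 to Pcdhb16 had changes between −0.33 and 0.54 and none was called, and next to them lay Pcdhb17. Pcdhb18, Pcdhb19 and Pcdhb20 had changes of 0.04, 0.07 and −0.05. At the far end, Pcdhb21 and Pcdhb22 had uncalled changes of 0.45, 1.17 and 0.62. No test of position was made.

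**Figure D2:**
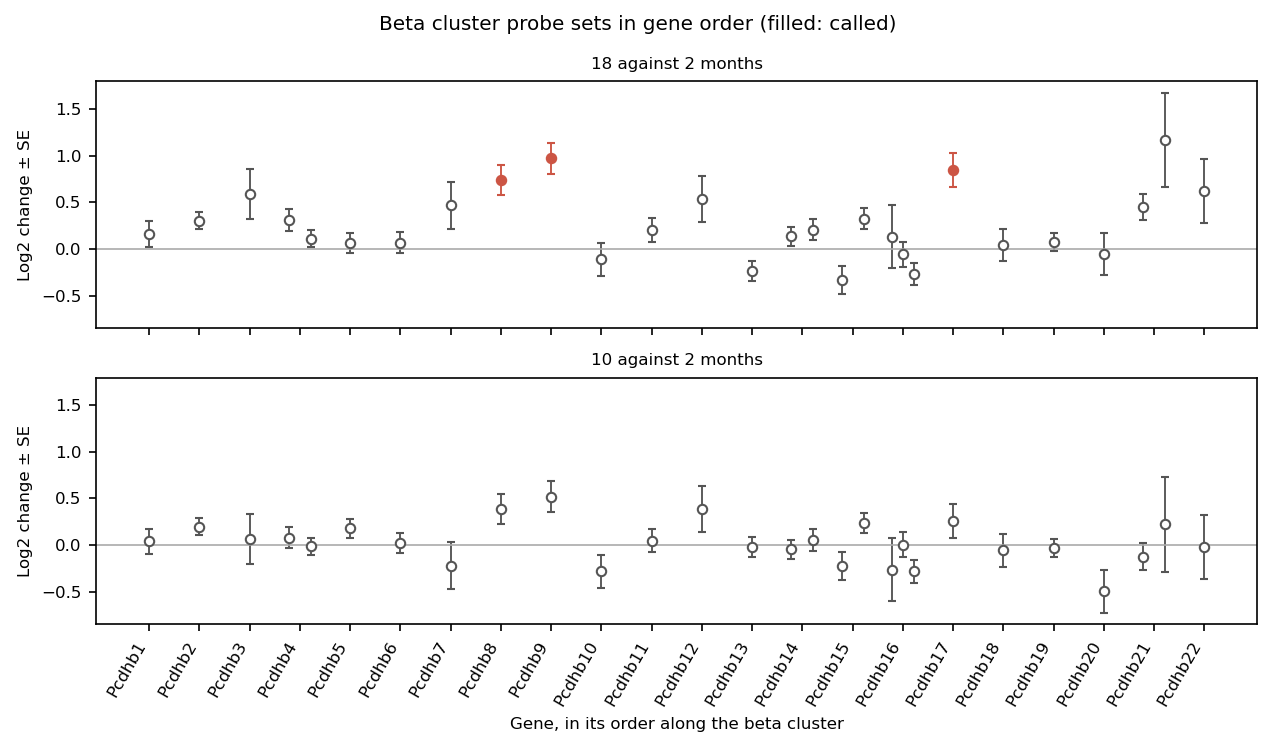
Log2 change with its SE (vertical axis) of the 28 beta cluster probe sets in the order of their 22 genes along the cluster (horizontal axis), at 18 against 2 months above and at 10 against 2 months below, with filled points for called probe sets. At 18 months Pcdhb8, Pcdhb9 and Pcdhb17 are called, with changes of 0.74, 0.97 and 0.85, and at 10 months none is called.

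Outside the beta cluster, the clearest value was that of Pcdh10, a delta-2 protocadherin that recruits the WAVE actin-regulating complex. Probe set 1421311_at stood at 8.35, 8.31 and 8.33 in the young samples, 7.81, 8.16, 7.86 and 7.70 at 10 months, and 7.66, 7.84, 7.80 and 7.58 at 18 months. All samples of both later ages lay below the young ones. The fall from 2 to 18 months was −0.61 ± 0.12 (SE) with an adjusted p of 0.0140. The 5 other Pcdh10 probe sets were not called, with changes of 0.16 (1438134_at, the brightest), −0.16 (1430667_at), 0.32 (1425563_s_at), −0.06 (1442565_at) and −0.25 (1444301_at). The call for Pcdh10 thus rests on 1 of its 6 probe sets, and the brightest had a change of the opposite sign.

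Pcdhgc4, a gamma isoform of the C type known for its role in the survival of inhibitory interneurons, was the only gamma member. Its values were 6.57, 6.98 and 6.68 in the young samples, 6.45, 6.54, 6.45 and 6.36 at 10 months, and 6.08, 6.25, 6.41 and 6.33 at 18 months. The samples of both later ages lay below all young samples. The fall from 2 to 18 months was −0.48 ± 0.12 (SE) with an adjusted p of 0.0366. It did not pass the test in 12 of 20 alternatives, 8 of which left out 1 sample. The change ran from −0.86 to −0.36. Alternatives that keep the 2 and 18 months values as they are, such as those without a 10 months array, could not alter it.

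Other protocadherins outside the beta cluster had a median log2 change of −0.17 from 2 to 18 months, and 12 of 34 (35.3%) were above 0, against 40.4% of all probe sets. In 1 probe set the 18 months samples all lay above the young ones and in 6 all below, where 10.4% and 13.1% of all probe sets did so. The delta-1 median was −0.23 over 9 probe sets, the delta-2 median was −0.11 over 16, and that of Pcdh12, Pcdh15 and Pcdh20 was −0.17 over 8. The probe sets with the highest signal of their subfamily were not called, with changes of −0.19 ± 0.19 (SE) for Pcdh9 (1429861_at, delta-1), −0.15 ± 0.16 (SE) for Pcdh8 (1447825_x_at, an activity-induced delta-2 protocadherin of synapses) and 0.07 ± 0.19 (SE) for Pcdh20 (1424701_at). Of these genes' other probe sets, that of Pcdh8 had a change of 0.13, those of Pcdh9 had −0.23 and 0.13, and that of Pcdh20 had 0.10. The most negative uncalled change was −0.57 ± 0.54 (SE) in Pcdh11x (1438889_at), an X-linked delta-1 gene, with 18 months samples between 7.31 and 8.92 that overlapped with the young ones at 8.07 to 9.27.

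Pcdh1 and Pcdh12 came near the threshold and were picked out after their values were seen. Pcdh12, an endothelial protocadherin, had 5.36, 5.26 and 5.04 in the young samples and 4.67, 5.00, 4.69 and 4.78 at 18 months (1437928_at, −0.44 ± 0.13, SE, adjusted p = 0.0592), while its other probe sets had changes of −0.20 (1450473_at) and 0.06 (1440023_at). Pcdh1 had 5.17, 4.93 and 4.95 in the young samples and 4.61, 4.54, 4.79 and 4.25 at 18 months (−0.47 ± 0.15, SE, adjusted p = 0.0785). In Pcdh1 and in 1437928_at of Pcdh12, the 18 months samples lay below all young samples. Endothelial and pericyte markers, measured as 8 genes, had 0 called higher and 1 called lower (Pdgfrb, a pericyte receptor, −0.72 ± 0.16, SE, adjusted p = 0.0230), and their mean log2 level was 7.89 to 8.05 at 2 months and 7.83 to 8.25 at 18 months. Their part in the values of Pcdh12 was not tested.

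**Figure D3:**
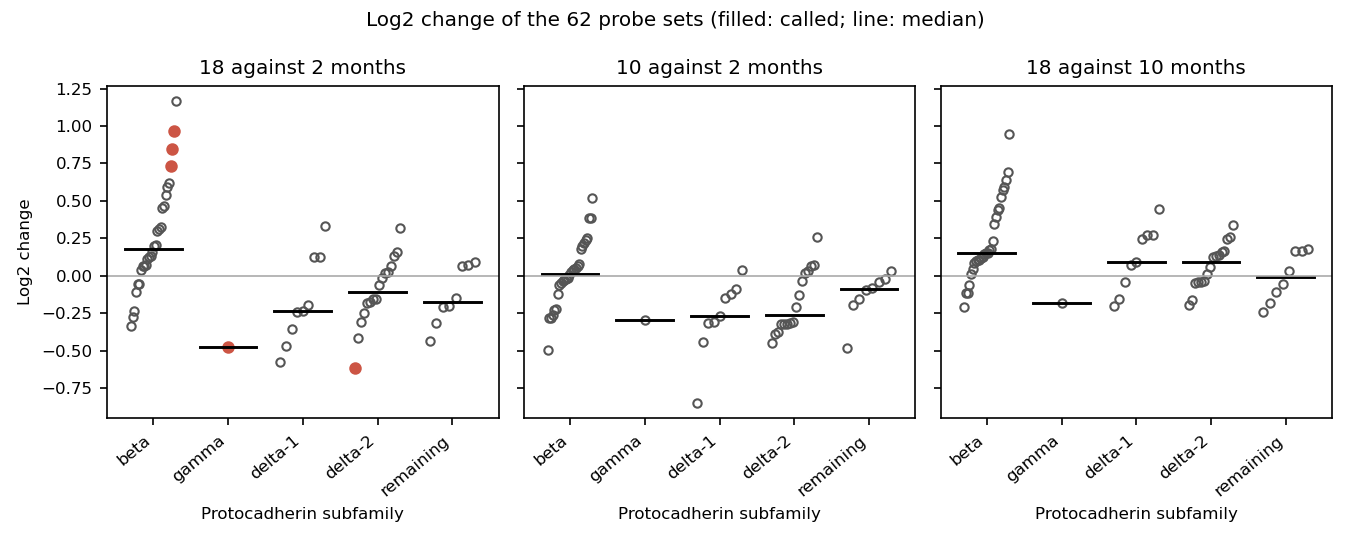
Log2 change (vertical axis) of the 62 protocadherin probe sets by subfamily in the 3 age comparisons, with 1 point per probe set, filled where called, and a line at the median. The beta medians are 0.18, 0.01 and 0.15 at 18 against 2, 10 against 2 and 18 against 10 months, and the called points all belong to the comparison of 18 with 2 months.

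Several probe sets were present for 16 genes and did not always move the same way from 2 to 18 months. All probe sets of a gene had the same sign in 3 of 5 such beta genes (Pcdhb4, Pcdhb14, Pcdhb21) and in 4 of 11 other genes (Pcdh11x, Pcdh15, Pcdh17, Pcdh20). The probe sets of Pcdhb15, picked out after their values were seen, were opposite, with a change of −0.33 ± 0.15 (SE) in 1443421_s_at and 0.33 ± 0.11 (SE) in the dim 1421549_at. Neither was called, and in each the 18 months samples did not overlap with the young ones. Pcdhb16 had 0.13, −0.06 and −0.27 in its 3 probe sets.

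**Figure D4:**
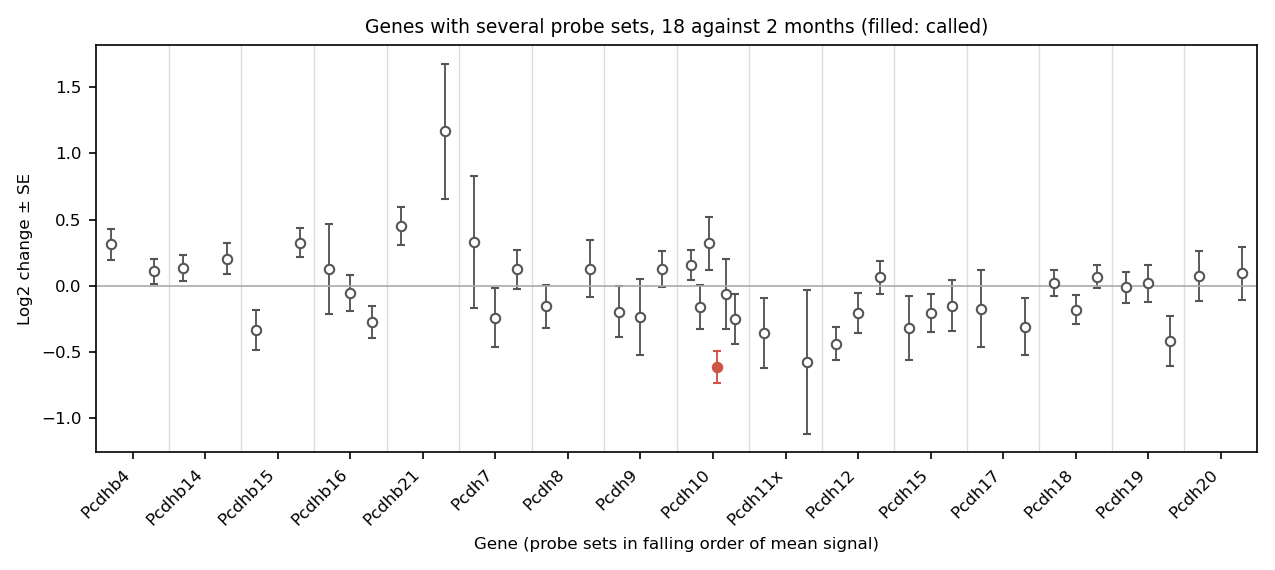
Log2 change from 2 to 18 months with its SE (vertical axis) for the 16 protocadherin genes with several probe sets (horizontal axis, the brightest probe set of each gene first), filled where called. In Pcdh10 the called probe set at −0.61 stands below the other 5, which lie between −0.25 and 0.32.

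At 10 against 2 months no protocadherin was called in limma, where 0.837% of all probe sets were called higher and 0.524% lower. At an unadjusted p under 0.05, 2 beta probe sets were higher and 1 lower, and 1 other protocadherin probe set was higher and 4 lower, where 7.95% and 7.68% of all probe sets were. The beta median was 0.01 and that of the other protocadherins was −0.17, against −0.01 over all probe sets. The beta median had no stable sign, as it was −0.02 without 10 months array 3 and 0.05 without young arrays 3 and 4. Of the other protocadherins, 7 of 34 (20.6%) had a change above 0, against 48.4% of all probe sets. Samples did not overlap in 2 beta probe sets that were higher and 1 that was lower, and in 1 other protocadherin probe set that was higher and 4 that were lower, where 6.35% and 6.25% of all probe sets did so. As these comparisons share the young samples with those of 18 months, their values are not independent.

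The largest uncalled changes from 2 to 10 months on the positive side were those of Pcdhb9 (0.52 ± 0.17, SE), Pcdhb12 (0.39 ± 0.24, SE) and Pcdhb8 (0.39 ± 0.16, SE). On the negative side they were those of Pcdh11x (1438889_at, −0.85 ± 0.54, SE), Pcdhb20 (−0.50 ± 0.23, SE) and Pcdh15 (1444317_at, −0.48 ± 0.24, SE), a gene best known for the tip links of inner ear hair cells. Pcdhb20 was the only beta gene among the latter, and it stood at 9.29, 9.51 and 9.07 in the young samples and at 8.74, 8.59, 9.20 and 8.65 at 10 months. The smallest adjusted p of the 62 probe sets was 0.0886, for 1421311_at of Pcdh10 (−0.45 ± 0.12, SE).

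From 10 to 18 months no protocadherin was called either, where 1 of all probe sets was called (0.00222%). The beta median was 0.15 with 24 of 28 (85.7%) above 0, and that of the other protocadherins was 0.06 with 20 of 34 (58.8%) above 0, against −0.03 and 41.5% for all probe sets. The median of the other protocadherins was −0.03 without 10 months array 2 and 0.17 without 10 months array 3. Unadjusted p-values were under 0.05 in 5 beta probe sets, all higher, and in 1 other protocadherin probe set, which was lower, where 2.6% of all probe sets were higher and 2.46% lower. The 18 months samples lay above all 10 months samples in 3 beta probe sets (1.11% of all probe sets) and in none of the others, and below them in 0 beta and 1 other probe set (1.62% of all). The largest uncalled changes were 0.95 ± 0.47 (SE) in Pcdhb21 (1438106_at), 0.69 ± 0.23 (SE) in Pcdhb7 and 0.64 ± 0.31 (SE) in Pcdhb22. Pcdh12 (1437928_at), Pcdhb13 and Pcdh1 were at the other end with −0.24, −0.21 and −0.20.

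Whether the change was equal in both intervals was tested as the change from 2 to 10 months minus that from 10 to 18 months. No protocadherin passed an adjusted p of 0.05, and 0% of all probe sets did. At an unadjusted p under 0.05 there were 3 beta probe sets, those of Pcdhb7, Pcdhb20 and 1420422_at of Pcdhb21, each with the more positive change in the later interval, and 2 probe sets of Pcdh18 with opposite signs, where 2.67% of all probe sets had the more positive change in the earlier interval and 2.8% in the later. The smallest adjusted p among the protocadherins was 0.898.

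Samples of 1 age differed from each other in the protocadherins as a group. Averaged over the 28 probe sets, the beta cluster had log2 levels of 5.83 ± 0.03, 5.86 ± 0.13 and 6.10 ± 0.14 at the successive ages (mean ± SD, n = 3, 4 and 4). The 18 months arrays ran from 5.95 to 6.25 and lay above the young samples at 5.82 to 5.87, while 10 months array 3, at 6.04, reached into their range. Averaged over 34 probe sets, the other protocadherins had 7.56 ± 0.07, 7.37 ± 0.21 and 7.43 ± 0.10 (SD), with overlap between all ages. At 18 months, array 2 was the highest of the 4 arrays in 17 of 28 beta probe sets (60.7%), against 22.2% of all probe sets. At 10 months, array 3 was the highest in 14 of 28 beta probe sets (50%) and in 21 of 34 other protocadherin probe sets (61.8%), against 30.1% of all.

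The control probe sets of the arrays moved with age as well. For Actb and Gapdh the signal at the 3′ end exceeded that at the 5′ end, a reading of how far along a transcript the label extends, by 3.47 ± 0.17, 2.15 ± 0.34 and 1.98 ± 0.24 (SD) at 2, 10 and 18 months, and the young arrays stood above all later ones. The mean of 24 probe sets of the added poly-A controls was 6.06 ± 0.09, 6.38 ± 0.09 and 6.90 ± 0.33 (SD) and separated all ages. When this end difference entered the fit as a covariate, no probe set was called, and the change from 2 to 18 months became 1.09 ± 0.48 (SE) in Pcdhb9, 0.81 ± 0.53 in Pcdhb17, 0.10 ± 0.42 in Pcdhb8, −0.43 ± 0.34 in Pcdh10 (1421311_at) and −0.86 ± 0.33 in Pcdhgc4. Age and these control values cannot be fully told apart in these arrays. The calls also rested on single arrays. Without young array 1 no protocadherin member was called, and 423 of all 45037 probe sets were, against 3359 in the reported fit. Without 18 months array 2 or array 4 Pcdhb9 was the only beta gene called, and 1947 and 1951 of all probe sets were. Without 10 months array 3 there were 5 beta and 4 other probe sets called, and 5326 of all probe sets.

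**Figure D5:**
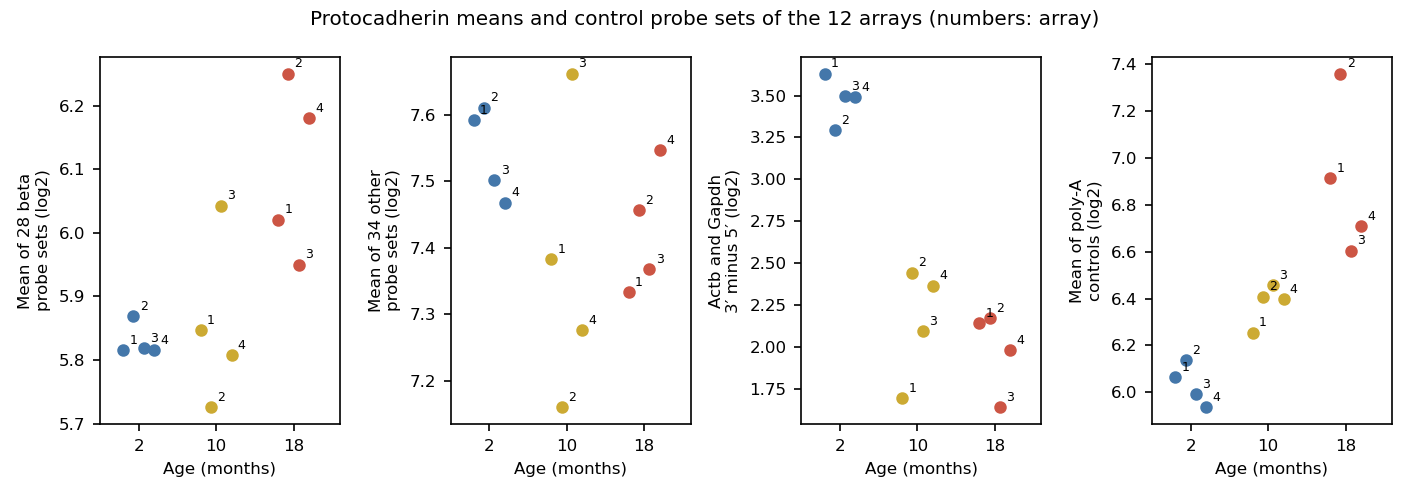
Values of the 12 arrays by age in months, with the array number beside each point, on log2 scales that do not start at 0. From left to right, the panels show the mean of the 28 beta probe sets, the mean of the 34 other protocadherin probe sets, the 3′ minus 5′ difference of Actb and Gapdh, and the mean of the poly-A controls, and the beta mean is highest in 18 months array 2 at 6.25.

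Genes known to act with the protocadherins were counted at the probe set with the highest mean of each gene, where 5.76% of all genes were called higher and 3.06% lower at 18 against 2 months. Of 10 genes of CTCF and cohesin, 3 rose and 0 fell, with a list median of 0.19 against −0.02 for all genes. They were Smc1a (0.69 ± 0.16, SE) and Smc3 (0.82 ± 0.22, SE), core subunits of the cohesin ring, and Stag2 (1.09 ± 0.24, SE), which binds the ring. Ctcf itself had a change of −0.09 ± 0.17 (SE) and did not pass the test. Smc1a also rose at 10 against 2 months (0.80 ± 0.16, SE, adjusted p = 0.0461). Calls at 10 against 2 months, here and below, rested on single arrays. Of all probe sets, 613 were called in the reported fit, 3 without 10 months array 1 and 1 without young array 1. Of 7 measured genes that silence clustered protocadherins, Setdb1, a histone methyltransferase, rose (0.77 ± 0.16, SE) and Dnmt1, the maintenance DNA methyltransferase, fell at 18 months (−0.75 ± 0.12, SE) and at 10 months (−1.01 ± 0.12, SE, adjusted p = 0.0216), with a list median of −0.11 at 18 months.

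Of 17 measured partners and effectors, 3 rose and 1 fell at 18 months, with a list median of 0.17. Rac1, a small GTPase of actin remodelling, rose by 1.32 ± 0.27 (SE), the WAVE complex subunit Cyfip2 by 0.75 ± 0.20 (SE) and the adaptor Pdcd10 by 0.49 ± 0.12 (SE), while Marcks, an actin-binding protein, fell (−0.48 ± 0.12, SE). Of 17 measured classical cadherins, Cdh11 rose (0.61 ± 0.16, SE) and 0 fell, with a median of −0.05. Of 13 measured large cadherins and calsyntenins 0 were called in limma in either direction, and their median was −0.23. At an unadjusted p under 0.05, 1 was higher and 3 lower, where 2749 of all 18193 genes were higher and 1962 lower.

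In whole tissue, fewer cells of a type and less RNA per cell cannot be told apart, so markers of the cell types in the VTA were counted beside the protocadherins. Of 10 markers of neurons, the main site of clustered protocadherins, 3 rose at 18 months (Stmn2 1.25 ± 0.23, Snap25 0.97 ± 0.19 and Syt1 0.67 ± 0.16, SE) and Rbfox3 fell (−0.57 ± 0.15, SE). Their mean log2 level was 11.6 to 11.9 at 2 months, 11.6 to 12.3 at 10 months and 11.99 to 12.2 at 18 months. Of 10 dopaminergic markers, Th, which makes the dopamine precursor, rose (0.84 ± 0.14, SE) and the transcription factor En1 fell (−0.54 ± 0.11, SE), with a mean level of 11.3 to 11.5 at 2 months and 11.5 to 11.6 at 18 months, and Th also rose at 10 months (0.84 ± 0.14, SE, adjusted p = 0.0307). Th stood at 13.0, 13.8 and 13.8 at the 3 ages. Its protein marked dopaminergic neurons of both the VTA and the adjacent substantia nigra in the study, so Th does not separate these regions.

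Glial and other markers moved with age too. Of 10 measured microglia markers, 3 rose (P2ry12 1.58 ± 0.23, Ctss 0.69 ± 0.10 and Tmem119 0.51 ± 0.14, SE) and 0 fell, and their mean level was 8.53 to 8.87 at 2 months and 9.0 to 9.47 at 18 months. P2ry12 rose at 10 months as well (1.05 ± 0.23, SE, adjusted p = 0.0496). Of 7 measured oligodendrocyte markers, Ermn (0.84 ± 0.13, SE) and Aspa (0.44 ± 0.12, SE) rose, with a mean level of 12.2 to 12.3 at 2 months and 12.4 to 12.5 at 18 months. Of 9 astrocyte and 6 oligodendrocyte precursor markers 0 were called in limma. At an unadjusted p under 0.05, 4 and 3 were higher and 0 lower, where 2749 of all 18193 genes were higher and 1962 lower. Mean levels of these 2 lists ran from 10.6 to 10.7 and from 9.92 to 10.1 at 2 months and from 10.8 to 11.2 and from 9.98 to 10.1 at 18 months. Of 5 choroid plexus markers Clic6 rose (0.76 ± 0.19, SE), and 1 was lower at an unadjusted p under 0.05. This was Ttr, the thyroxine carrier made by choroid plexus, with a change of −1.92 ± 0.70 (SE, adjusted p = 0.122). The list's mean level was 5.49 to 5.97 at 2 months and 5.16 to 5.52 at 18 months. The part of cell composition in the protocadherin changes was not tested.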

How the data were processed

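VTA RNA of 12 pools of 5 mice, 4 at each of 2, 10 and 18 months, was labelled from 50 ng in a protocol with a pair of amplification cycles and hybridised to Affymetrix mouse genome arrays. Values were deposited by the authors as log2 expression per probe set after RMA and ran from 2.40 to 14.7. Besides RMA, the notes of the submitters list limma 3.4.5. Scanner files were not used here. Of 45101 probe sets, 64 controls were left out, and genes came from the platform annotation (34945 probe sets with 1 gene, 932 with several, 9160 with none). All 35 member genes matched the GRCm38.p6 gene table, used for names and gene order only. The annotation names no build, so no positions are given.

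All ages were fitted together in limma 3.58.1 under R 4.3.3 (lmFit, contrasts.fit, eBayes) after young arrays 3 and 4 were averaged, as in an earlier treatment of these data. P-values were adjusted by Benjamini-Hochberg over 45037 probe sets, and the procedure was tested on simulated data. Since an array is a pool, the p-values refer to the spread among pools and not among single mice, and precision is set by the number of arrays. Signal levels served only to pick the brightest probe set of a gene or subfamily and to mark dim ones, and were not otherwise compared between probe sets.

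Members, lists and tests were chosen with earlier results of these data known. Named were all called protocadherin probe sets, the brightest of each subfamily, the other probe sets of genes so named, Pcdhb3 and Pcdhb9, the 3 largest rises and 3 largest falls of each comparison, and the called members of the lists. Alternatives were the 12 separate arrays, a replicate block, median centring, quantile normalization, a filter on dim probe sets, a 3′ minus 5′ covariate, an intensity trend in eBayes, no fold threshold and leaving out each sample in turn. A fit with only the 2 and 18 months arrays was added after seeing the data. Same-numbered arrays of different ages were not paired: their deviations correlated at −0.61 to 0.43, above 0.1 in 4 of 12 pairs.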

Additional observations from a re-analysis of the deposited data

Results flagged for a closer look

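Pcdhb17 at 18 months was flagged because array 3, at 7.94, stood apart from the other arrays of its age, of which the nearest was at 8.36 and the highest at 8.40. The gap was 0.905 of the range, above Dixon's limit for 4 samples. Of 56 groups of 4 samples tested over 28 named probe sets this was the only one flagged, and chance flags about 1 in 20.

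A probe set of the alpha cluster that is listed for 14 genes, 1424341_s_at, lay outside the members and rose from 2 to 18 months by 1.19 ± 0.27 (SE) on the log2 scale, with an adjusted p of 0.0237 in limma. Its change from 2 to 10 months was 0.77 ± 0.27 (SE) and was not called. Which of the 14 genes it reports cannot be told from the annotation.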

How the results depend on the processing

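Of the log2 changes of the single named probe sets, recomputed under each alternative, 589 values kept direction and side of the threshold, 25 became weaker, 1 stronger and 10 reversed. Where an alternative keeps the values of both compared ages as they are, the log2 change cannot move, so its direction there was fixed in advance. The 3 beta probe sets called higher at 18 against 2 months became 5 with quantile normalization and 0 with the 3′ minus 5′ covariate, and 0 to 5 when 1 sample was left out (0 without young array 1, 1 without 18 months array 2 or 4, 5 without 10 months array 3). The 2 other protocadherin probe sets called became 1 with arrays centred on their medians, with the eBayes trend or with only the 2 and 18 months arrays, 0 with the covariate, and 0 to 4 when 1 sample was left out (0 without young array 1, 4 without 10 months array 3, 1 without young array 2, 10 months array 1 or 4, or 18 months array 1, 2 or 4). Over all probe sets, 3359 were called at 18 against 2 months in the reported fit. Quantile normalization gave 3299, median centring 3466, the eBayes trend 2896, only the 2 and 18 months arrays 3903 and the covariate 0. The number was 423 without young array 1, 1947 and 1951 without 18 months array 2 and 4, and 5326 without 10 months array 3. It was 1668 without young array 2, 2539 and 2436 without 10 months array 1 and 4, and 2111 without 18 months array 1. At 10 against 2 months the 0 called outside the beta cluster became 0 to 1, with 1 without 10 months array 2 (Pcdh10) or array 3 (Pcdh9). Over all probe sets, 613 in the reported fit became 635 and 1256 without these arrays, and 1276 without young arrays 3 and 4. The number fell to 3 without 10 months array 1 or 4, without young array 2 or with the replicate block. It was 1 without young array 1, 53 to 159 without an 18 months array, 181 with the eBayes trend and 0 with the covariate. The beta median from 10 to 18 months, 0.15, was 0.29 with only probe sets above the lower quartile. The beta median at 18 against 2 months ran from 0.17 to 0.31 over 19 alternatives, and that of the others from −0.37 to −0.11. The eBayes trend, leaving out a 10 months array and using only the 2 and 18 months arrays could not alter these medians. Medians near 0 changed sign when 1 array was left out: the beta median at 10 against 2 months (0.01) was −0.02 without 10 months array 3, and reached 0.09 with the covariate, and that of the others at 18 against 10 months (0.06) was −0.03 without 10 months array 2. Of the called probe sets, that of Pcdhgc4 was lost most often, with adjusted p of 0.0600 after median centring, 0.0526 with the eBayes trend and 0.0599 with only the 2 and 18 months arrays. With 12 separate arrays, 7 protocadherin probe sets were called (Pcdh1 and 1 of Pcdhb21 in addition), and 4460 of all probe sets. With the replicate block in these 12 arrays 5 were called, 3 beta and 2 other, and 2548 of all probe sets. These 5 were the same probe sets as in the reported fit of 11 samples.

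With the covariate the log2 change reversed in Pcdhb8 at 10 against 2 months (−0.18) and, at 18 against 2 months, in 1447825_x_at of Pcdh8 (0.15), 1424701_at (−0.33) and 1451454_at (−0.53) of Pcdh20, and 1425563_s_at (−0.27), 1438134_at (−0.0099) and 1442565_at (0.18) of Pcdh10. The last also reversed with quantile normalization (0.0058) and ran from −0.16 to 0.09 when 1 sample was left out (0.084 without young array 1, 0.088 without 18 months array 3). The cause was not tested.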

Other observations

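The other 5 alpha cluster probe sets, listed for 9 or 14 genes each, were not called at 18 against 2 months, with log2 changes between −0.47 and 0.04. They included 1420798_s_at, the brightest, at −0.09 ± 0.18 (SE), and 1451769_s_at at −0.47 ± 0.46 (SE), which are listed for the same 14 genes as the called 1424341_s_at.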
